A study of Pleurodeles waltl with 9 samples.

Results

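In the dorsal iris of the Iberian ribbed newt *Pleurodeles waltl*, 93 of the 295141 transcripts in the deposited table met a rule for a late rise. The rule asked for higher values at 4 days post-lentectomy (dpl) than in the intact iris and at 1 dpl. These late-responding transcripts were chosen by their own values. In every 4 dpl library the value had to be at least 200, and the lowest 4 dpl value had to be at least 4 times the highest of the 5 earlier values plus 1. The 1 dpl mean plus 1 also had to lie under 2 times the intact mean plus 1. The rule read intact replicates 1 and 2, and it did not read intact replicate 3. Because the rule used the comparisons of 4 dpl with intact, of 4 dpl with 1 dpl and of 1 dpl with intact, these comparisons are given for the 93 transcripts as descriptions, with no test.

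Newts replace a removed lens from the pigment epithelium of the dorsal iris. The pigmented cells discharge their melanosomes, return to the cell cycle and take on the identity of lens cells, and early after the operation immune cells enter the iris and the extracellular matrix is remodelled. The sampled days precede the appearance of a lens vesicle. The table identifies transcripts by number only, either as a numbered mRNA model or as a transcript assembled from these reads with StringTie, and does not pair the numbers with gene names. Its IDs were looked up among the 59059 genes listed by RefSeq for assembly aPleWal1.hap1.20221129, and 0 were found. Gene functions, pathways, the markers of iris pigment epithelium, macrophages or other cells, and sequences were therefore not analysed here, and the tissue label was not checked against markers. The ID is given for 2 transcripts, and the others are called by their rank in mean 4 dpl value among the 93.

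Bulk polyA RNA sequencing was done on dorsal iris tissue dissected from 13-month-old newts. The 3 groups were intact animals, animals at 1 dpl and animals at 4 dpl, with 3 libraries each. The lens was taken out surgically under tricaine in both lentectomy groups. Each library held tissue pooled from 4 animals and was labelled a biological replicate, so the spread between libraries is one between pools. The labels give no genotype, strain or sex for these pools. Intact tissue was the only control, and an anaesthetised group without lens removal is not among the samples. In pooled tissue, more cells of a type and more RNA per cell cannot be told apart. The study left intact replicate 3 out of its own comparison for its low alignment rate, and its values are given separately. The deposited values, named average TPM by the authors, are used here as a normalized signal per transcript, since each library summed to between 17541400 and 22023400. The paper states a minimum sequencing depth per sample, but the number of reads behind each value is unknown.

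All 3 libraries at 4 dpl held far more of the set than any earlier library. Summed over the 93 transcripts, the signal was 7034 and 7315 in intact replicates 1 and 2. It was 7034, 7428 and 6958 in the 1 dpl libraries, and 112814, 94324 and 91452 in the 4 dpl libraries. As a share of the library total this was 0.0364% and 0.0374% in intact iris, 0.0345%, 0.0368% and 0.0316% at 1 dpl, and 0.523%, 0.458% and 0.469% at 4 dpl. The sums at 1 dpl lay around those of intact iris, and those at 4 dpl lay far above both. By construction all 93 transcripts had their 3 values at 4 dpl above all 5 earlier values. Among all 295141 transcripts 1.81% did so, and of the 10210 transcripts with a value of at least 200 in every 4 dpl library 23.1% did so. These 10210 transcripts, which contain the 93, serve below as the comparison set.

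The typical member was lower in intact iris and at 1 dpl than at 4 dpl, where it was well above the minimum of the rule. Across the 93 transcripts, the lowest, median and highest values were 1.17, 40.7 and 727 in intact replicate 1 and 2.32, 39.0 and 820.0 in intact replicate 2. At 1 dpl they were 2.27, 27.4 and 1133 in replicate 1, 2.61, 30.6 and 1168 in replicate 2, and 1.10, 25.5 and 1095 in replicate 3. At 4 dpl they were 226, 681 and 11926 in replicate 1, 201, 516 and 7909.9 in replicate 2, and 204, 551 and 8739.6 in replicate 3. The ranges of different transcripts overlapped between time points, so the highest transcripts of intact iris exceeded many members at 4 dpl, while each member by itself did not overlap.

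**Figure D1:**
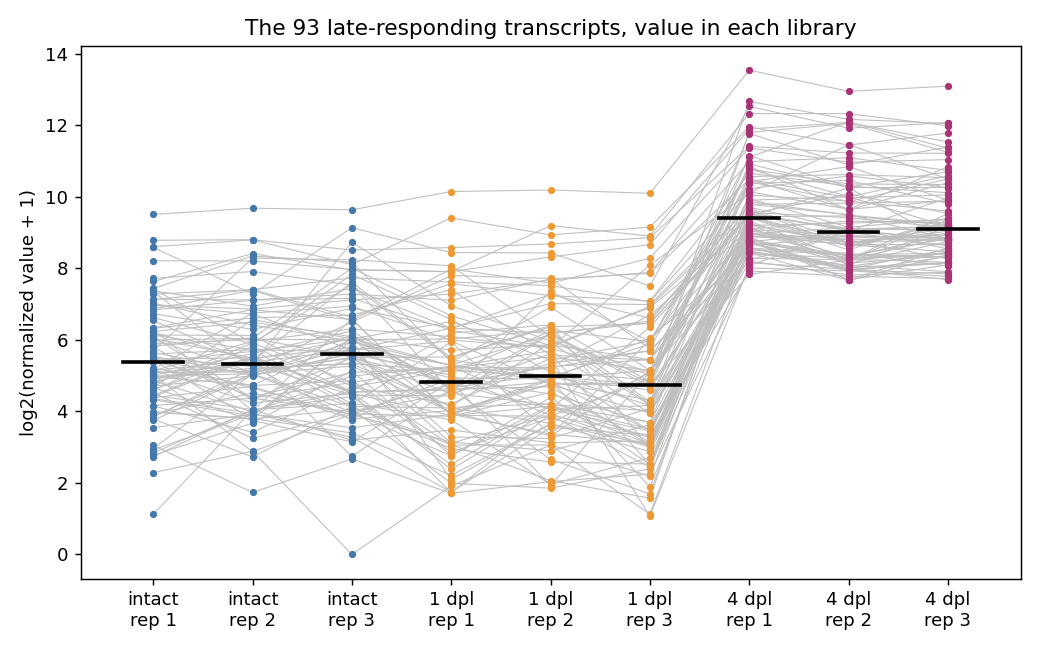
Log2(normalized value + 1) of each of the 93 transcripts in all 9 libraries, with 1 point per transcript and library, grey lines that join the points of a transcript and say nothing of pairing, and black bars at the library medians. The medians lie between 25.5 and 47.8 on the linear scale in the intact and 1 dpl libraries and between 516 and 681 at 4 dpl.

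All 93 transcripts were listed above 0, and above 1, in both intact replicate 1 and intact replicate 2. A value above 20 in both was reached by 62 of the 93. Library totals lie far above those of TPM, so a value of 1 or 20 here stands for far less than the same value in TPM. Being listed above 0 or above 1 is therefore a weak sign of presence in intact iris. The share of the comparison set above these values was not counted. How many reads stand behind the low values is not known. No member was at 0 in any of the 5 earlier libraries. The mean over intact replicates 1 and 2 ranged from 4.797 to 774 with a median of 39.3. It was above 10 for 88 transcripts, above 20 for 72, above 50 for 35 and above 100 for 19. The 3 highest in intact iris were the transcripts ranked 1, 10 and 6 at 4 dpl. Among all transcripts above 0 in a library, the median member stood at percentile 74.97 in intact replicate 1 and 73.8 in replicate 2. At 1 dpl it stood at 58.9, 69.6 and 70.8, and at 4 dpl at 95.7, 94.6 and 95.5. These percentiles also depend on which other transcripts a library lists above 0. At 1 dpl the median member value was 27.4 in replicate 1, at percentile 58.9, and 25.5 in replicate 3, at percentile 70.8. Intact levels thus spanned a wide range, and none was listed at 0 in intact replicates 1 and 2. The rule itself did not ask for presence in intact iris, although its limit on 1 dpl values relative to intact makes a value of 0 in intact less likely to be selected. In the comparison set the median intact mean was 466, against 39.3 among the members.

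**Figure D2:**
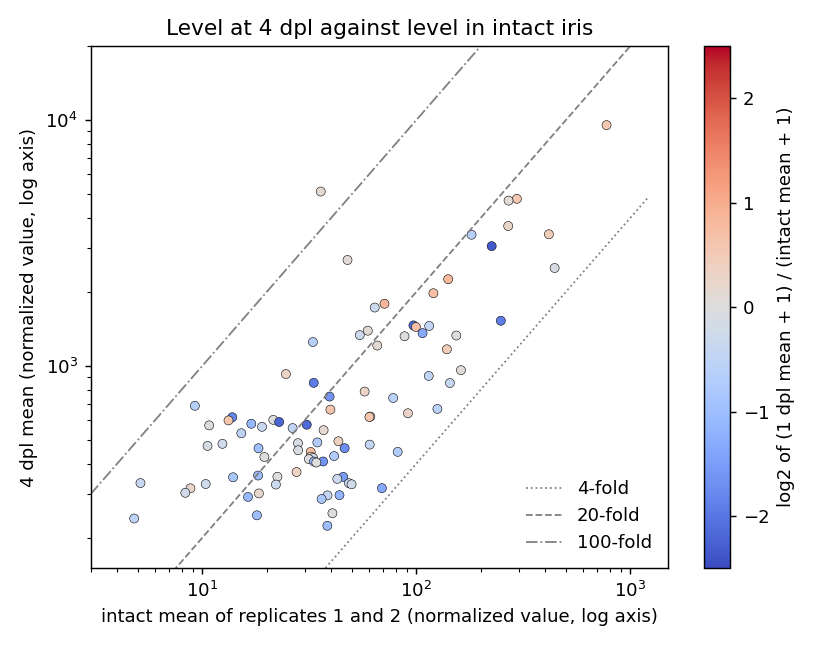
Mean 4 dpl value against the mean of intact replicates 1 and 2, both normalized values on log axes, with 1 point per transcript for the 93, coloured by the log2 ratio of 1 dpl to intact, and lines at 4-fold, 20-fold and 100-fold. All points have an intact mean of 4.797 or more, and mRNA99756 alone lies above the 100-fold line.

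At 4 dpl the group means of the members ran from 223 to 9525, with quartiles of 404 and 1249 and a median of 572. The comparison set had a median of 583, so the members were of ordinary level among transcripts past the minimum of 200. The 4 dpl mean was above 500 for 51 members, above 1000 for 26 and above 2000 for 11. The 5 highest transcripts held 27.9% of the summed 4 dpl mean of the set and the 10 highest 43.1%. Levels in intact iris and at 4 dpl were related across the 93 transcripts (Spearman's rho = 0.65), as they were across the comparison set (rho = 0.70). The 4 dpl level and the fold difference were hardly related across members (rho = 0.04). These coefficients describe transcripts measured in shared libraries, which are not independent replicates.

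mRNA14754 had the highest 4 dpl level of the set. Its values were 727 and 820.0 in intact iris, 1133, 1168 and 1095 at 1 dpl, and 11926, 7909.9 and 8739.6 at 4 dpl. The group means were 774 ± 65.6 (SD, n = 2), 1132 ± 36.4 (SD, n = 3) and 9525 ± 2120.0 (SD, n = 3). The 4 dpl mean was 12.3 times the intact mean and 8.41 times the 1 dpl mean, each after adding 1 to the means, as for every fold given here. The 3 values at 1 dpl were also all above both intact values, with a 1 dpl mean 1.46 times that of intact iris. The transcript was therefore abundant before the operation and somewhat higher by 1 dpl, within the limit of 2 set by the rule.

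mRNA99756 had the greatest fold difference and, after mRNA14754, the highest 4 dpl level. It had 32.6 and 38.8 in intact iris, 20.5, 70.7 and 26.4 at 1 dpl, and 6501, 4594 and 4244 at 4 dpl. Its means were 35.7 ± 4.395 (SD, n = 2), 39.2 ± 27.4 (SD, n = 3) and 5113 ± 1215 (SD, n = 3). The 4 dpl mean was 139 times the intact mean and 127 times the 1 dpl mean. The earlier values of this transcript were close to those of the median member. Its 3 values at 1 dpl spread around the 2 intact values.

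The transcripts ranked 3 to 6 had between 154.6 and 444 in intact iris. Rank 3 had 295.4 and 294.1 in intact iris, 239, 585 and 477 at 1 dpl, and 5141, 5130.5 and 4056 at 4 dpl, with folds of 16.2 over intact and 11.0 over 1 dpl. Rank 4 had 384 and 155 in intact iris, 346, 344 and 181 at 1 dpl, and 5901, 3873 and 4316 at 4 dpl, with folds of 17.4 and 16.1. Its 2 intact values bracketed its 3 values at 1 dpl. Rank 5 had 197 and 339.6 in intact iris, 239, 319 and 404 at 1 dpl, and 3813, 4329 and 2966 at 4 dpl, with folds of 13.7 and 11.5. Rank 6 had 388 and 444 in intact iris, 679.8, 488 and 568 at 1 dpl, and 3969.8, 2789 and 3520.0 at 4 dpl, with folds of 8.22 and 5.91. In rank 6, as in mRNA14754, the 3 values at 1 dpl already exceeded both intact values.

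Ranks 7 to 10 differed more in their earlier values. Rank 7 was uneven before 4 dpl, with 50.7 and 311 in intact iris, 268, 67.0 and 17.49 at 1 dpl, and 3570.0, 4238 and 2426 at 4 dpl. Rank 8, an assembled transcript, had 209.8 and 239.6 in intact iris, 42.6, 30.02 and 58.2 at 1 dpl, and 2212, 4357 and 2629.9 at 4 dpl. Its 1 dpl mean was 0.198 times the intact mean, the lowest such ratio of the set, and its folds at 4 dpl were 13.6 over intact and 68.8 over 1 dpl. Rank 9, also assembled, had 33.9 and 61.3 in intact iris, 67.1, 53.2 and 31.7 at 1 dpl, and 3492, 1901 and 2686 at 4 dpl. Rank 10 had 439.8 and 445 in intact iris, 382, 409 and 463 at 1 dpl, and 2724, 2392 and 2377 at 4 dpl. Rank 9 thus had lower earlier values than rank 10 and folds of 55.4 and 52.1. Rank 10 had folds of only 5.64 and 5.96 and nearly the same values in intact iris and at 1 dpl.

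**Figure D3:**
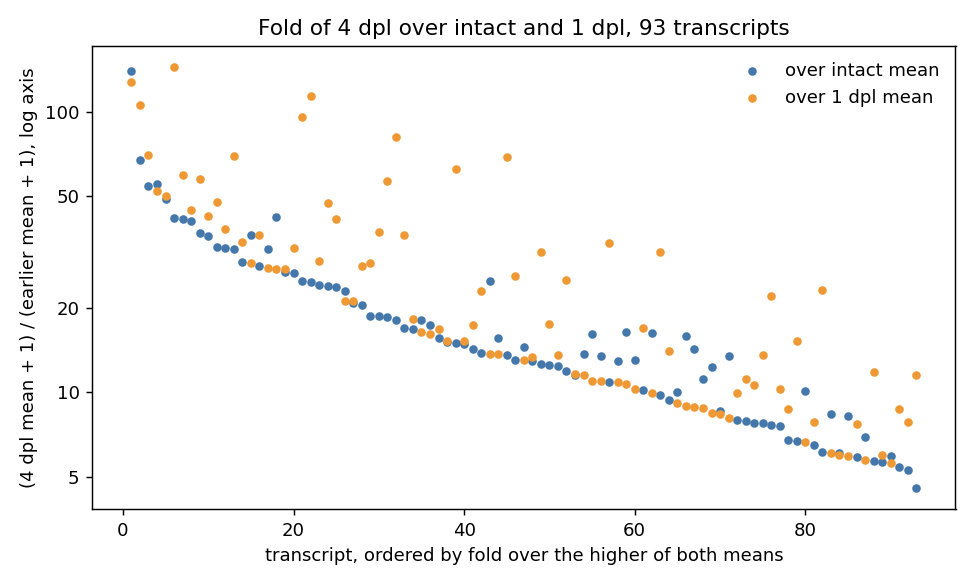
Fold of the 4 dpl mean plus 1 over the intact mean plus 1 (blue) and over the 1 dpl mean plus 1 (orange) on a log axis, for the 93 transcripts in order of the fold over the higher of both means. The median fold is 14.5 over intact and 17.0 over 1 dpl, and mRNA99756 stands first at 139 and 127.

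Over the 93 transcripts, the fold of 4 dpl over intact had a median of 14.5 with quartiles of 9.82 and 24.1, and ranged from 4.55 to 139. The fold over 1 dpl had a median of 17.0 with quartiles of 10.6 and 36.4, and ranged from 5.61 to 144. On the log2 scale the median differences were 3.86 and 4.09. In the comparison set the median folds were 1.32 over intact and 1.16 over 1 dpl. Measured against the higher of the 2 earlier means, the fold was above 10 for 61 members, above 20 for 28, above 30 for 13, above 50 for 4 and above 100 for mRNA99756 alone. Since 1 was added to each mean, the folds of members with the lowest earlier values are understated.

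After mRNA99756, 3 of the next 4 transcripts by fold had earlier values below those of the median member, and rank 9 did not. The transcript ranked 35 by level had 12.8 and 5.62 in intact iris, 6.77, 4.999 and 4.77 at 1 dpl, and 885, 724 and 452 at 4 dpl, which gave folds of 67.3 and 106. Rank 77, an assembled transcript, had 3.87 and 6.39 in intact iris, 2.77, 7.32 and 1.18 at 1 dpl, and 378, 252 and 369.8 at 4 dpl, with folds of 54.5 and 70.2. Rank 9 came next by fold. Rank 47, also assembled, followed with 6.14 and 15.4 in intact iris, 23.8, 5.30 and 2.23 at 1 dpl, and 728, 538 and 450.2 at 4 dpl. The greatest fold over 1 dpl alone, 144, belonged to rank 41, with 2.97, 2.61 and 4.27 at 1 dpl against 14.8 and 12.8 in intact iris and 729, 546 and 576 at 4 dpl. Rank 41 was singled out after its values were seen.

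The 1 dpl means of the set lay more often below than above those of intact iris. The 1 dpl mean was below the intact mean for 62 of 93 members, and the fold of 1 dpl over intact had a median of 0.832, with quartiles of 0.598 and 1.10 and a range of 0.198 to 1.82. In the comparison set the median was 1.09, with quartiles of 0.757 and 1.65. The upper end of the range is fixed by the rule, which removed transcripts at 2 or more. How few members lay above intact iris at 1 dpl is thus also fixed in part by the rule. All 3 values at 1 dpl lay below both intact values for 25 of the 93 members, a share near the 25% of the comparison set. They lay above both for 4 members, which were ranks 1, 6, 11 and 12, where 35.7% of the comparison set did so. For the other 64 members the values of both groups overlapped. For 18 members the 1 dpl mean was under 0.5 times that of intact iris, and for 8 it was over 1.5 times. The shares of the comparison set with a 1 dpl mean below intact, under 0.5 times or over 1.5 times were not counted. Intact and 1 dpl means were closely ordered across the 93 (rho = 0.88). The rule limited both means, and this coefficient was not computed for the comparison set.

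Members varied among the 4 dpl pools by more than the comparison set. The coefficient of variation over the 3 values at 4 dpl had a median of 21.8% with quartiles of 15.2% and 28.4%, against a median of 15.1% in the comparison set. It was above 30% for 19 members and above 50% for 4. The most even member, rank 15, had 1515, 1574 and 1483 at 4 dpl (3.02%), and the most uneven, rank 66, had 226, 301 and 738 (65.6%). Both were singled out after their values were seen. In 65 of the 93 members the highest 4 dpl value was in replicate 1, in 18 it was in replicate 2 and in 10 in replicate 3. In the comparison set these shares were 46.1%, 36.7% and 17.2%. After scaling all libraries to equal totals, replicate 1 was highest in 55 members, replicate 2 in 18 and replicate 3 in 20, against 33.6%, 37.8% and 28.5% of the comparison set. The set was thus highest in 1 of the 3 pools more often than the comparison set was, and this difference was not tested.

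Intact replicate 3, which the rule did not read, also held the members below their 4 dpl values. It listed 92 of the 93 above 0, and the exception was rank 77, whose value there was 0. The lowest, median and highest values were 0, 47.8 and 795, and the members summed to 8403, or 0.0479% of the library total. No member's value in this library reached the lowest of its 4 dpl values. The rule held the other 2 intact values far below these, so this result was made likely by the choice of members. The shares of the comparison set above 0 in this library, or below their 4 dpl values, were not counted. mRNA14754 had 795 and mRNA99756 had 21.0 there, close to the other 2 intact values in the former and below both in the latter. Across members the order in this library resembled that of the other intact mean (rho = 0.80).

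Relative to the other 2 intact libraries, however, the members stood higher in replicate 3 than the comparison set did. The ratio of replicate 3 plus 1 to their mean plus 1 had a median of 1.08 in the members, with quartiles of 0.706 and 1.66 and a range of 0.149 to 6.38, and a median of 0.717 in the comparison set. Replicate 3 lay below both others for 28 members, between them for 23 and above both for 42. In the comparison set it lay below both for 68.3% and above both for 16.5%. It was above all 5 earlier values for 31 of the 93 members, where 6.32% of the comparison set was. The rule removed transcripts with high values in the 5 earlier libraries and not in this one, so part of this excess is fixed by the choice of members. For 8 members the lowest 4 dpl value was under 4 times the value plus 1 in replicate 3. The largest of these values was that of rank 25, with 424 in replicate 3 against 92.2 and 39.0 in replicates 1 and 2 and 1323, 1404 and 898 at 4 dpl. The low alignment rate of this library stands beside these values, and its part in them was not tested.

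**Figure D4:**
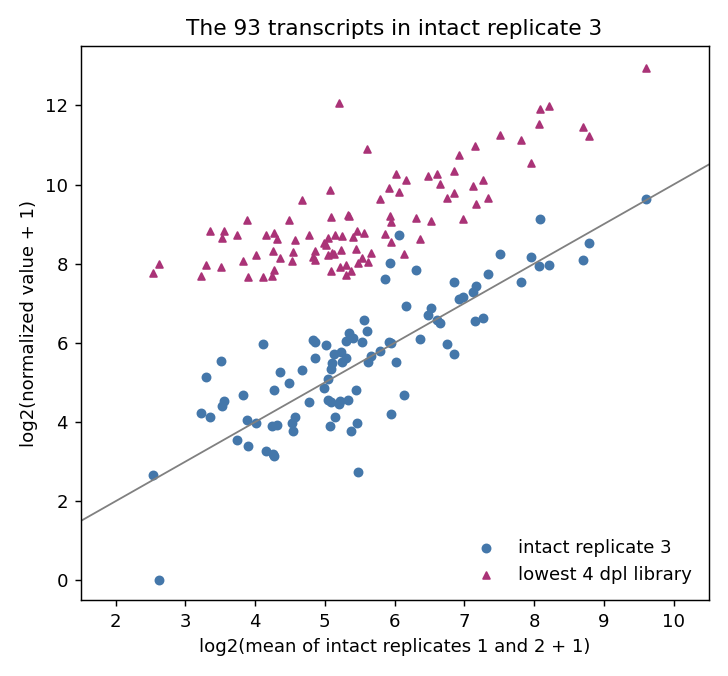
Log2(value + 1) in intact replicate 3 (circles) and in the lowest 4 dpl library (triangles) against log2 of the mean of intact replicates 1 and 2 plus 1, for the 93 transcripts, with a line of equality. The circles lie on both sides of the line, 0 of the 93 reach the transcript's own triangle, and the point at 0 is rank 77.

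The members just inside and outside each limit of the rule had similar values. The lowest 4 dpl value was 201, 203 and 204 in the 3 members nearest the minimum, and 199.5, 198.8 and 198.5 in the nearest transcripts that failed only there. The ratio of the lowest 4 dpl value to the highest earlier value plus 1 was 4.04, 4.07 and 4.08 in the nearest members and 3.83, 3.81 and 3.81 in the nearest failures. The ratio of 1 dpl to intact was 1.82, 1.78 and 1.68 in the nearest members, and 2.21, 2.42 and 2.52 in the nearest of the 17 transcripts that failed only this limit. The nearest of these 17 had 204 and 335 in intact iris, 602, 630.4 and 558 at 1 dpl, and 3972, 4384 and 3374 at 4 dpl. It differed from mRNA14754 and rank 6 in the size of its step at 1 dpl and not in its direction.

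By kind of ID, 62 members were numbered mRNA models and 31 were StringTie assemblies. Assembled transcripts made up 33.3% of the members and 35.1% of the comparison set. The median 4 dpl mean was 609.7 for the mRNA models and 429 for the assembled members, and the median fold over the higher earlier mean was 11.7 and 14.9. The 31 assembled members fell in 30 assembled genes, of which 1 held ranks 8 and 23. In 17 of the 30 genes no other transcript was listed. The other 13 listed 57 more transcripts, 27 of them in 1 gene. These 57 were not chosen by the rule, although Salmon divides reads between transcripts of a gene that share sequence, so their values are not independent of those of the members.

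In the 13 genes with other transcripts, the members mostly held a larger part of the gene's signal at 4 dpl. The median share of the gene's summed signal held by members was 55.6% in intact iris, 34.9% at 1 dpl and 78.7% at 4 dpl, and the lowest to highest shares were 1.90% to 88.6%, 1.39% to 78.2% and 25.3% to 97.7%. Members held over 50% of the signal in 7 genes in intact iris and in 9 at 4 dpl. In 8 of the 13 genes the share in every 4 dpl library exceeded that in both intact libraries. Of all transcripts in assembled genes with more than 1 transcript 15.1% did so, and of those with at least 200 in every 4 dpl library 25.8%. The gene sum itself at 4 dpl was above all 5 earlier values in 10 of the 13 genes, against 12.3% of assembled genes with more than 1 transcript. The members' own values enter both counts, which are therefore descriptions.

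**Figure D5:**
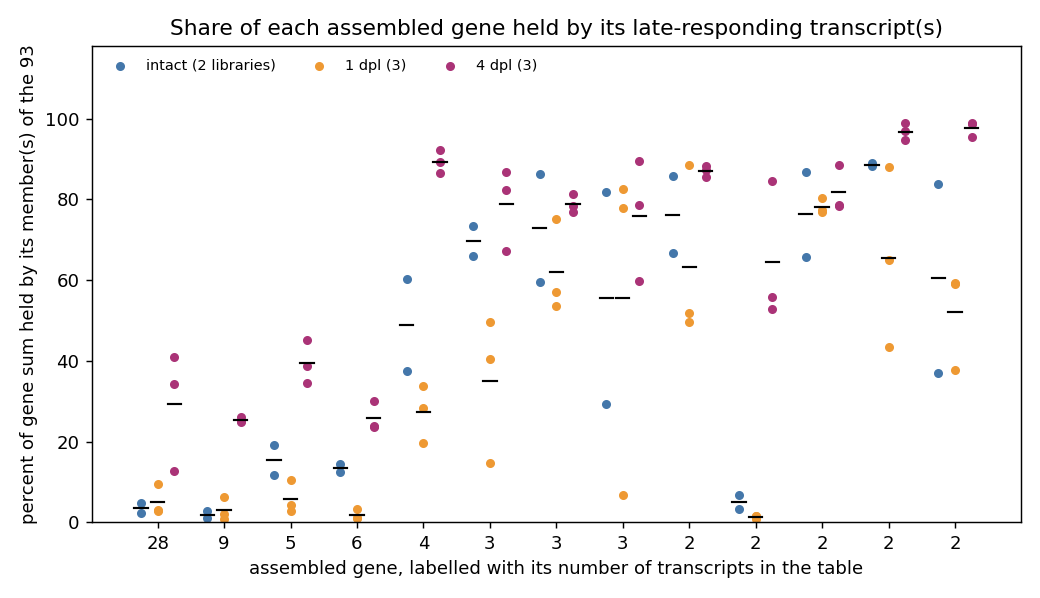
Percent of the assembled gene's summed signal held by its members in 2 libraries of intact iris, 3 of 1 dpl and 3 of 4 dpl (points, with bars at the group means), for the 13 genes that list other transcripts, each labelled by its number of transcripts. The medians over genes are 55.6% in intact iris, 34.9% at 1 dpl and 78.7% at 4 dpl.

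Among these 57 other transcripts, limma called 4 against intact iris at an adjusted p under 0.05, 3 of them with higher and 1 with lower values at 4 dpl. Against 1 dpl it also called 3 with higher and 1 with lower values. Over all 154825 tested transcripts the called shares were 1.37% higher and 0.651% lower against intact, and 0.406% higher and 0.243% lower against 1 dpl. The median log2 difference of the 57 was 0.75 against intact and 0.29 against 1 dpl, where all tested transcripts had medians of -0.12 and -0.24. Without the gene that held 27 of them, 30 transcripts remained with the same numbers of calls and medians of 0.92 and 0.80, an alternative added after the data were seen. Each of the 8 libraries was also left out in turn. Leaving out any 1 library at 1 dpl or 4 dpl lowered the 3 higher calls against 1 dpl to 0 or 1. Calls over all tested transcripts fell as well, from 628 to between 161 and 358, so the loss was not particular to the 57. In these fits 10 to 14 of the 57 were higher by limma at an unadjusted p under 0.05. The share of all tested transcripts that passed at an unadjusted p was not counted, here or for the unadjusted counts below. Intact libraries enter this comparison only through the spread estimated over all groups and the minimum mean. The log2 differences of 4 dpl from 1 dpl do not use the intact libraries. Their median over the 57, 0.29, was therefore bound to stay the same without either intact library. The 1 lower call against 1 dpl became 0 without intact replicate 1, intact replicate 2, 1 dpl replicate 2 or 4 dpl replicate 1, and 2 without 4 dpl replicate 2 (2 to 5 were lower at an unadjusted p under 0.05). Leaving out intact replicate 2 lowered the 3 higher calls against intact to 1, and the 1 lower call against intact was kept only without 1 dpl replicate 1 or without 1 dpl replicate 3 (2 to 4 were lower at an unadjusted p under 0.05 in these 8 fits). It was also lost under the replicate block and without the intensity trend.

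The assembled gene of ranks 8 and 23 listed 6 transcripts and was higher both at 1 dpl and at 4 dpl. Its summed signal had a mean of 2365 in intact iris, 8182 at 1 dpl and 16713 at 4 dpl. The main other transcript had 1549 and 2106 in intact iris, 5134, 6713 and 8567 at 1 dpl, and 10258, 12640.4 and 10449 at 4 dpl, which was higher than in intact iris (log2 difference 2.61, SE 0.21, limma adjusted p = 0.000549). Against 1 dpl the same transcript did not pass (adjusted p = 0.170 by limma). This gene was thus already higher at 1 dpl through a transcript outside the set, while its member of rank 8 was lower there than in intact iris. A further transcript of the gene had 79.2 and 42.8 in intact iris, 532, 886 and 735 at 1 dpl, and 25.6, 70.0 and 20.7 at 4 dpl, and was lower at 4 dpl than at 1 dpl (log2 difference -4.35, SE 0.52, limma adjusted p = 0.00951). The remaining transcripts of the gene were uneven between the 4 dpl pools, with 767, 14.4 and 1774 in the first and 22.2, 927 and 17.7 in the second. The split of signal between transcripts of this gene thus differed between pools of the same group.

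In some other genes the member held a small share of the signal in intact iris and a larger one at 4 dpl, and 2 of them are given in detail. In the gene of 28 transcripts the mean share was 3.52% in intact iris, 5.07% at 1 dpl and 29.4% at 4 dpl. Its libraries were uneven, with 9.56%, 2.92% and 2.74% at 1 dpl and 40.9%, 12.8% and 34.3% at 4 dpl. In a gene of 5 transcripts the mean share was 15.5%, 5.84% and 39.4%. A gene of 2 transcripts had summed means of 2101 in intact iris, 1604 at 1 dpl and 2264 at 4 dpl, and its member held 4.94%, 1.39% and 64.4% of them. Its other transcript had 2417 and 1590.2 in intact iris, 1593, 1563 and 1588 at 1 dpl, and 350.3, 968 and 1096 at 4 dpl. Its value in intact replicate 3, 748, lay within the range at 4 dpl, and it did not pass (limma adjusted p = 0.175 against intact and 0.321 against 1 dpl). The gene sum was 2497 and 1704 in intact iris, 1607, 1589 and 1615 at 1 dpl, and 2279.7, 2192 and 2321 at 4 dpl, so its 4 dpl values lay between the intact values and above those at 1 dpl. A gene of 9 transcripts had summed means of 3455, 3127 and 4769, of which its member held 1.90%, 2.99% and 25.3%. In that gene a transcript was lower at 4 dpl than in intact iris, with 1095, 997 and 938 against 2645 and 2676 (log2 difference -1.40, SE 0.28, limma adjusted p = 0.0358). It had 1005, 1836 and 1936 at 1 dpl. Another was higher, with 166, 366 and 441 against 46.8 and 76.4 (log2 difference 2.30, SE 0.46, limma adjusted p = 0.0399). That transcript was already high at 1 dpl, with 375, 394 and 333. Between 4 dpl and 1 dpl it did not pass (log2 difference -0.29, limma adjusted p = 0.817).

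In 3 further genes, of 2 or 4 transcripts, a less abundant partner was higher at 4 dpl together with the member. The partner of rank 47 had 3.05 and 2.57 in intact iris, 3.08, 5.41 and 2.08 at 1 dpl, and 96.5, 79.1 and 75.4 at 4 dpl, and was higher at 4 dpl than in intact iris (log2 difference 4.47, SE 0.60, limma adjusted p = 0.00600) and than at 1 dpl (4.29, SE 0.54, limma adjusted p = 0.0114). The partner of rank 63 had 62.8, 109.5 and 112 at 4 dpl against 5.96, 9.52 and 4.93 at 1 dpl (log2 difference 3.62, SE 0.56, limma adjusted p = 0.0263), and against intact iris it did not pass (2.90, limma adjusted p = 0.0518). A partner of rank 44 had 46.7, 25.96 and 47.3 at 4 dpl against 4.68, 3.96 and 1.80 at 1 dpl (log2 difference 3.21, SE 0.57, limma adjusted p = 0.0461), and against intact iris it did not pass (2.55, limma adjusted p = 0.0937). In each of these genes the member was the more abundant transcript at 4 dpl. In intact replicate 3, which the fit did not read, these partners of ranks 47, 63 and 44 had 13.8, 32.9 and 20.1. Each of these values lay above both other intact values and below all 4 dpl values of its transcript.

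In 5 pairs of members both lay within 5 rows of each other in the table, and whether row order follows genome position was not shown by the file. mRNA14754 and rank 4 formed such a pair. The 4 transcripts listed between them had at most 56.6 at 4 dpl and at most 11.9 in the earlier libraries. The nearest to mRNA14754 of these 4 had 47.4, 46.7 and 39.3 at 4 dpl. Members had to reach 200 in every 4 dpl library, so the gap to the transcripts between them is fixed in part by the rule.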

How the data were processed

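Dorsal iris libraries, each a pool of 4 animals, were assigned to intact, 1 dpl and 4 dpl groups by their labels, and each of the 9 columns to a library by its name. The authors trimmed reads with Trim Galore, aligned them with STAR, assembled transcripts with StringTie, extracted them with gffread and quantified them with Salmon, using 20 Gibbs samples, sequence and GC bias correction and the genome as decoy. The genome build and the versions of these tools are not given in the sources used here. The deposited values are a normalized signal per transcript that the authors name average TPM. Their library totals, from 17541400 to 22023400, exceed those of TPM, and no value above 0 was whole. The number of reads behind each value is therefore unknown, so no counting interval is given and no count test was run.

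The rule for the late-responding transcripts and the lists derived from it were chosen with earlier results of these data known. Folds are of group means plus 1, and SDs are over libraries. IDs are printed for the member with the highest 4 dpl mean and for that with the greatest fold over the higher earlier mean, and further members are described by rank: the 10 highest at 4 dpl, the 5 greatest folds, the 3 highest in intact iris and those nearest each limit.

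Other transcripts of the members' assembled genes were compared with limma 3.58.1 in R 4.3.3 (lmFit, eBayes with an intensity trend) on log2(value + 1), in 1 model of 8 libraries without intact replicate 3, over the 154825 transcripts with a mean of at least 0.5. P-values were adjusted over all of these by the Benjamini-Hochberg method, with a threshold of 0.05. The test was planned for TPM and kept for the larger scale, and it was tested on simulated data. The simulation placed changes only in abundant transcripts and drew independent errors. It therefore does not cover scarce transcripts or transcripts that share reads with a member. Fold changes on this scale understate those of low transcripts. Further computation and plotting used Python 3.11.15 with pandas 2.3.3 and matplotlib 3.10.9. Alternatives covered the limits of the rule, the added constant, the low-value minimum, scaling, the trend, a replicate block and each left-out library.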

Additional observations from a re-analysis of the deposited data

Results flagged for a closer look

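For 4 of the 57 other transcripts in the members' assembled genes, the change from intact iris differed between 1 and 4 dpl by limma's test of 4 dpl against 1 dpl. In the gene of ranks 8 and 23, a transcript was lower at 4 dpl than at 1 dpl by a log2 difference of -4.35, with intact values close to those at 4 dpl. The partner of rank 47 was higher at 4 dpl than at 1 dpl by 4.29 on the log2 scale. The partner of rank 63 was higher by 3.62 on that scale. A partner of rank 44 was higher by 3.21. Each group held at most 3 libraries, too few for a test of a library that lies far from the others of its group.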

How the results depend on the processing

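Of 131 alternative values, 94 kept their direction and stayed on their side of the threshold or within the spread or 1.5 times the count, and 37 did not. Some of the 94 could not move, because the left-out library did not enter the value. Examples are the median fold over intact without a 1 dpl library and the gene share at 4 dpl without an intact library. For the share in intact iris the spread was that of 2 libraries, so 37.1% and 66.0% were counted as kept against 55.6%. The number of members, 93, became 52 with a 4 dpl minimum of 400, 226 with a ratio of at least 2 and 42 with a ratio of at least 8. Leaving out each library in turn gave 93 to 130 members. The limits on single values can only loosen with fewer libraries. Of the 93, 87 were kept without intact replicate 1 and 85 without intact replicate 2. Without a 1 dpl library 90 to 92 were kept, and without a 4 dpl library all 93 were. With intact replicate 3 read by the rule 88 transcripts met it, of which 84 were among the 93, and at equal library totals 90 met it, of which 89 were among the 93. With 20 added in place of 1, the median log2 difference of the members was 3.38 over intact and 3.47 over 1 dpl. Without single libraries these medians were 3.82 to 3.95 and 4.00 to 4.26, the median share of the gene signal held by members was 77.0% to 79.9% at 4 dpl and 37.1% to 66.0% in intact iris, and all members stayed above 0 in intact iris. Above 20 in both intact libraries were 62 of the 93.

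The 3 other transcripts called higher at 4 dpl than in intact iris by limma became 7 with a minimum mean of 5, 5 with intact replicate 3 included and 1 without the intensity trend, and 1 to 3 without single libraries. The 3 called higher than at 1 dpl became 1 without the intensity trend and 0 or 1 without single libraries. In the as-reported fit 14 were higher than at 1 dpl at an unadjusted p under 0.05, and 10 to 14 without single libraries of 1 dpl or 4 dpl. No share of all tested transcripts was counted at this unadjusted threshold. Where an intact library was left out, the lone intact library was assumed to vary like the others. With the replicate number as a block, limma called 2 higher and 0 lower than in intact iris (4 lower at an unadjusted p under 0.05), and 1 higher and 1 lower than at 1 dpl. Without the intensity trend 0 were lower in either comparison (3 and 2 at an unadjusted p under 0.05). Same-numbered libraries did not deviate together (correlations from -0.0364 to 0.0405), and the labels describe no pairing. The cause of these differences was not tested. Over all tested transcripts, single left-out libraries gave 472 to 2201 higher than in intact iris, against 2123, and 62 to 358 higher than at 1 dpl, against 628. Quantile normalization moved the median difference of all transcripts from -0.12 to 0 against intact and from -0.24 to -0.02 against 1 dpl.

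With 2 intact pools, an unknown number of reads behind each value, no gene names and no control for anaesthesia, the data limit what can be said of any one transcript.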
